A study of Arabidopsis thaliana with 6 samples.

Results

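The 9 genes described here encode cleavage factors of the machinery that cuts a new transcript and starts its poly(A) tail: CSTF50, CSTF64, CSTF77 and ESP1 of the cleavage stimulation factor (CstF), AT4G25550 and CFIM-25 (AT4G29820) for the small subunit of cleavage factor I (CFI), CLPS3 and PCFS4 of cleavage factor II (CFII), and the symplekin gene ESP4. They were chosen by name, as 9 of the 18216 protein-coding genes with assigned reads. Poly(A) sites were counted by 3'READS+, a method that sequences the 3' ends of polyadenylated RNA, in whole seedlings of wild-type Arabidopsis thaliana, Columbia ecotype (Col 0). All seedlings grew at 22°C on agar under constant white light for 1 to 2 weeks and then stood 48 h in the dark. The Light group was then returned to light for 6 h and the Dark group was left without it for those 6 h, with 3 libraries each. The comparison addresses how renewed light changes the level of each gene and the choice among its poly(A) sites, here for the genes that themselves carry out that choice.

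Cleavage of a pre-mRNA needs several protein complexes. CPSF recognises the poly(A) signal and cuts, CstF binds the RNA on the other side of the cut, CFI binds further upstream and is known from human cells to influence which site is chosen, and CFII is needed for the cut itself and links it to the end of transcription. Symplekin is a scaffold on which these complexes assemble.

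Library totals lay between 13196815 and 14534166 reads over 217870 clusters, each a set of adjacent cleavage positions counted as 1 poly(A) site. Replicates differed by more than sampling noise, with a chi-square per degree of freedom across genes of 6.43 to 27.7. Whether they were grown as separate plantings is not stated in the labels, and the p-values cover no more than the spread among these libraries. Of the markers of whole seedlings, 3 of 3 leaf mesophyll genes were higher in Light. Their summed level in CPM, the read count scaled to a common library size, was 9612 to 11272 CPM against 2299 to 3313 CPM in Dark. RBCS1A alone makes up nearly all of it. For these marker sums, the library size is the reads assigned to protein-coding genes. Of 3 root markers, PYK10 was higher in Light and makes up nearly all of their summed level (7749 to 9177 CPM against 896 to 1790 CPM). The other root markers had fewer reads in Light, CASP1 40 against 57 (log2 change -0.90, adjusted p = 0.0544) and TIP2-3 8 against 26, too few to be tested. Of 2 vascular markers 1 was higher, and of 2 epidermis markers 1 was lower. All of these markers had reads, and 3 of 3 flower and pollen genes had too few for their strand to be inferred. Light replicate 1 held 449 reads of 4 seed storage genes where each other library held 1 to 4. The part of the marker differences in the results below was not tested. Without Light replicate 1, calls among the 9 genes were lost at CFIM-25 and ESP4 site usage only, as given below.

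A gene's level sums all clusters on its strand between its start and 200 nt past its annotated 3' end, and levels are given in CPM after TMM scaling, which assumes that most genes do not change. All 9 genes passed the filter on low counts. At an adjusted p of 0.05, 2 of the 9 differed between Light and Dark, CFIM-25 lower and CLPS3 higher, where 72.9% of the 16775 genes tested did, 37.4% higher and 35.6% lower. The median absolute log2 change was 0.30 for the 9 genes and 0.90 for all genes tested. Both called genes changed at least 2-fold (absolute log2 change of at least 1), and 45.7% of all genes tested did so. In 4 of the 9 genes the libraries of the groups did not overlap, against 75.7% of all genes tested. In whole seedlings, fewer cells of a type and less RNA per cell cannot be told apart.

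The count of called genes depended on the scaling. When libraries were scaled by their totals alone, the median of all genes moved by 0.45 on the log2 scale, and 68.2% of all calls were higher in Light in place of 51.2%. All 9 genes then passed, 8 higher and 1 lower, the lower one being CFIM-25. Of the 16775 genes tested, 12640 passed with library totals, beside 12233 with TMM factors. The directions below are relative to the TMM factors unless stated otherwise, and only CFIM-25 and CLPS3 passed under both scalings.

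**Figure D1:**
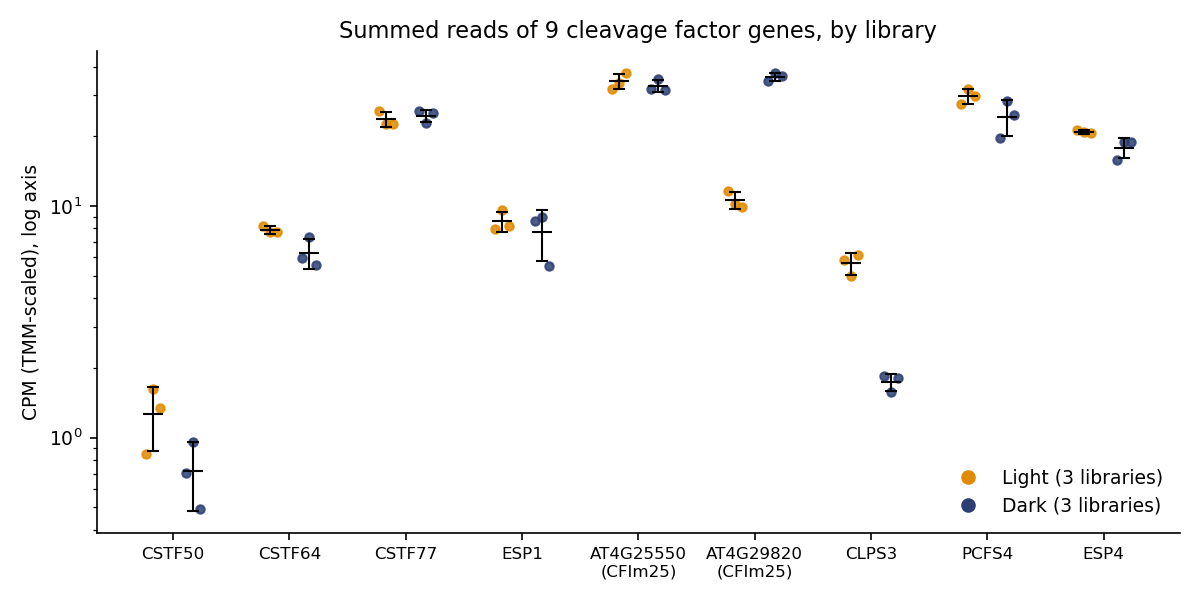
Level of each gene in CPM after TMM scaling (log axis), one point per library, with the mean and SD of 3 libraries in black. CFIM-25 (AT4G29820) stands at 9.95 to 11.6 CPM in Light and 34.6 to 37.4 in Dark, and CLPS3 at 4.99 to 6.16 and 1.57 to 1.84, while the points of the other genes lie close together or overlap.

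**Figure D2:**
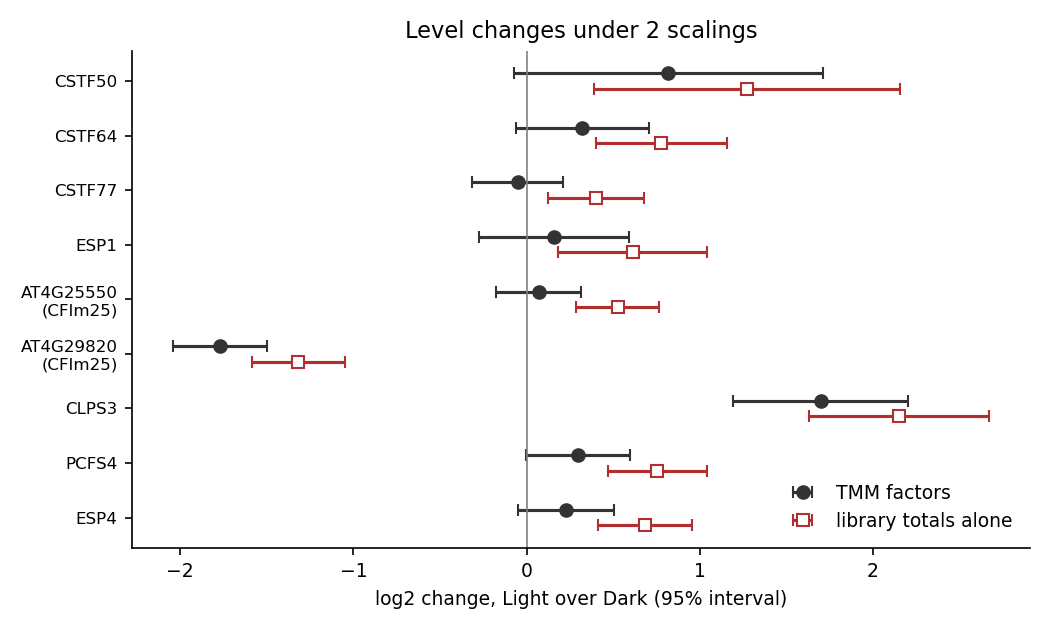
Log2 change of Light over Dark with its 95% interval, for TMM factors (filled circles) and library totals alone (open squares). With TMM factors 7 of the 9 intervals hold 0, and with library totals none does. Of the 16775 genes tested, 12233 passed with TMM factors and 12640 with library totals.

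In the cleavage stimulation factor, no gene changed its level past the test with TMM factors. CSTF77 (AT1G17760) encodes the large subunit that holds CstF together. It had 25.7, 22.6 and 22.7 CPM in the 3 Light libraries and 25.6, 22.7 and 25.1 CPM in the Dark libraries. The groups overlapped, and the ratio of Light to Dark was 0.965 with a 95% interval of 0.805 to 1.16 (log2 change -0.05, adjusted p = 0.717). Scaled by library totals it was higher in Light, 1.32-fold (adjusted p = 0.0123).

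CSTF64 (AT1G71800) encodes the subunit that contacts the RNA. It stood at 8.21, 7.69 and 7.70 CPM in Light and at 5.96, 7.35 and 5.58 CPM in Dark. Every Light library lay above every Dark library, and the ratio of 1.25 had an interval of 0.958 to 1.63 (adjusted p = 0.119). The gene passed the test only narrowly without Dark replicate 2 (log2 change 0.44, adjusted p = 0.0491), which held the highest of the Dark values. ESP1 (AT1G73840) encodes a CstF64-related protein found in Arabidopsis mutants with enhanced RNA silencing. Its mean level was 8.58 ± 0.871 CPM in Light and 7.70 ± 1.92 CPM in Dark (SD, n = 3 each), the groups overlapped, and the ratio was 1.12 with an interval of 0.828 to 1.50 (adjusted p = 0.487). Without Dark replicate 3, the lowest Dark library, its log2 change turned from 0.16 to -0.05.

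CSTF50 (AT5G60940), for the WD-repeat subunit, was the least counted of the 9, with 83 reads in all. The libraries held 13, 24 and 21 of its reads in Light and 8, 11 and 6 in Dark. The groups overlapped in CPM, and the ratio of 1.76 had an interval of 0.951 to 3.27 (adjusted p = 0.0895), so that neither no change nor a 3-fold rise lay outside it at this depth.

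The 2 genes for the small CFI subunit differed from each other in their response. CFIM-25 (AT4G29820) fell in Light 3.41-fold. It had 11.6, 10.3 and 9.95 CPM in Light and 34.6, 37.4 and 36.5 CPM in Dark. The groups lay far apart relative to their spread, and the log2 change was -1.77 (SE 0.126, edgeR adjusted p = 1.65e-08). AT4G25550 had 32.1, 34.1 and 37.4 CPM in Light and 31.9, 35.2 and 31.7 CPM in Dark. Its groups overlapped, and the ratio was 1.05 with an interval of 0.886 to 1.24 (adjusted p = 0.591).

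Within each library, where no scaling is needed, AT4G25550 gave 73.5%, 76.9% and 79.0% of the reads of the pair in Light and 48.0%, 48.4% and 46.5% in Dark. The pair was thus close to evenly split in all 3 Dark libraries, and AT4G25550 held most of the reads in all 3 Light libraries. The log2 ratio of AT4G25550 to CFIM-25 rose by 1.84, from -0.14 ± 0.060 to 1.70 ± 0.222 (SD, n = 3 each; exact two-sided permutation test, p = 0.1, the smallest that 3 against 3 libraries can give). The same ratio for CSTF64 over ESP1 was -0.27 ± 0.274 in Dark and -0.12 ± 0.183 in Light, and the libraries overlapped (exact two-sided permutation test, p = 0.5). These 2 pairs were the only ratios tested.

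**Figure D3:**
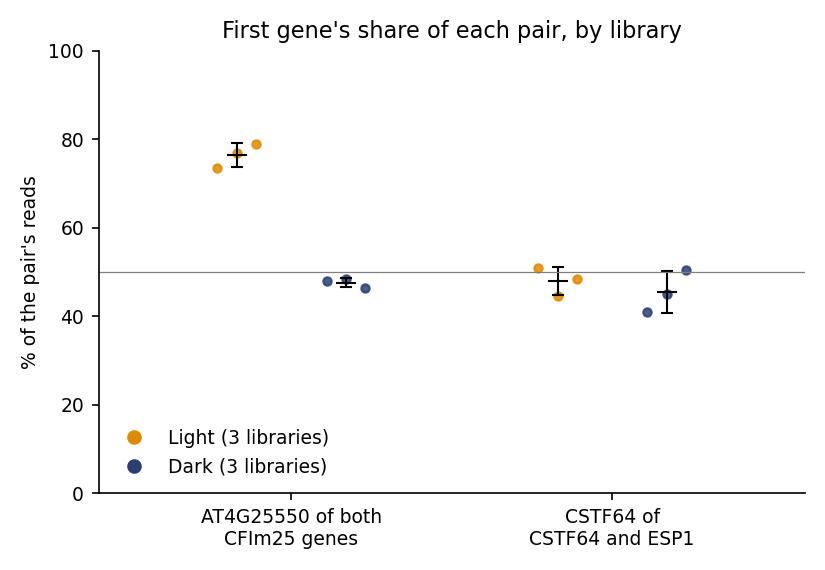
Share of a pair's summed reads that fell on its first gene, in percent, one point per library with the mean and SD of 3 libraries; the grey line marks an even split. AT4G25550 moves from 47.6% ± 1.04 in Dark to 76.5% ± 2.79 in Light, whereas the CSTF64 share overlaps between the groups (45.4% ± 4.72 and 47.9% ± 3.16).

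Of all 16774 other genes tested, the 3 whose log2 CPM over the 6 libraries, centred on its mean, lay closest to CFIM-25 were SPPL2 (AT1G63690), PGLCT (AT5G16150) and RAB8 (AT3G53610), with root mean square differences of 0.036, 0.036 and 0.042 and log2 changes of -1.70, -1.69 and -1.74.

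In cleavage factor II, CLPS3 (AT3G04680), a relative of the RNA kinase CLP1, rose in Light 3.25-fold. It had 5.87, 4.99 and 6.16 CPM in Light and 1.84, 1.57 and 1.81 CPM in Dark, which rest on 260 and 61 reads. The groups did not overlap, and the log2 change was 1.70 (SE 0.235, adjusted p = 1.56e-05). The change held without Light replicate 1 and without each other library, at 1.63 to 1.79 on the log2 scale.

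PCFS4 (AT4G04885), a relative of the termination factor PCF11, is known in Arabidopsis to promote flowering through the choice of poly(A) site in FCA. It had 27.6, 32.1 and 29.8 CPM in Light and 19.7, 28.3 and 24.8 CPM in Dark. Dark replicate 2 lay within the Light range, the ratio was 1.23 with an interval of 0.997 to 1.52, and the adjusted p of 0.0706 missed the threshold. The call was made without Dark replicate 2 (log2 change 0.42, adjusted p = 0.0108) and when reads past the annotated gene end were left out (0.40, adjusted p = 0.0318). FCA itself was 6.31-fold lower in Light, at 19.1 ± 0.592 against 120 ± 19.5 CPM. The usage of FCA's poly(A) sites also differed (edgeR's differential usage test with Simes' method, adjusted p = 0.000374), as in 25.7% of the 11075 genes tested. No link between PCFS4 and FCA was tested.

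ESP4 (AT5G01400), the symplekin gene, whose mutants like those of ESP1 show enhanced RNA silencing, stood at 21.3, 20.8 and 20.6 CPM in Light and 15.8, 18.8 and 19.0 CPM in Dark. All Light libraries were higher than all Dark libraries, but the ratio of 1.17 had an interval of 0.967 to 1.42 (adjusted p = 0.126).

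The remaining genes of the pathway moved in both directions. Of all genes tested, 72.9% passed, 37.4% higher and 35.6% lower, and the counts in these lists are to be read beside those shares. Of 8 CPSF genes, 5 were higher, 1 was lower and 2 did not pass. Their median log2 change was 0.71, against 0.23 for the 9 cleavage factor genes and 0.04 for all genes tested. FIPS3 (AT3G66652), a FIP1 relative, was 3.21-fold higher, at 5.05 ± 1.29 against 1.56 ± 0.436 CPM. FIPS5 (AT5G58040), another FIP1 relative, was 1.86-fold lower, at 34.3 ± 0.836 against 64.0 ± 5.93 CPM. Of 7 poly(A) polymerase and nuclear poly(A)-binding protein genes, 6 were tested, 1 was higher and 3 were lower (median -0.36). Among them the poly(A) polymerase gene PAPS2 (AT2G25850) was 4.09-fold lower, and PABN1 (AT5G51120), for a poly(A)-binding protein, 1.72-fold higher.

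Of 5 other CFII and symplekin genes, 3 were tested. PCFS5 (AT5G43620), a second PCF11 relative, was 1.41-fold higher, SYM2 (AT1G27595), a second symplekin gene, was 2.15-fold lower, and PCFS1 (AT1G66500) did not pass (log2 change 0.28, adjusted p = 0.116). CLPS5 and the polymerase gene PAPS3 had too few reads for their strand to be inferred, and SYM1 has no protein-coding entry in the gene table. FCA, FPA and FLC, tested as a list of 3 genes tied to flowering, were all lower, as were 35.6% of all genes tested. No difference between these lists was tested.

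The 9 genes held 7 to 25 clusters each, of which 1 to 8 reached 5% of all reads of the gene. These sites together held 86.6% to 97.8% of each gene's reads. Excluding CSTF50, whose reads were scattered over 8 sites, the main site held between 49.2% and 86.6% of the reads, beside a median of 67.9% for all genes tested, and lay between 266 nt before the annotated gene end and the end itself. The gene table gives no exons, so whether a site lies in an exon, an intron or an untranslated region is not stated here. Sites with at least 5% of reads that passed the filter could be compared in 6 of the 9 genes. Of these 6, 4 changed their site usage past the test (edgeR's differential usage test with Simes' method), ESP1, AT4G25550, PCFS4 and CFIM-25, against 25.7% of the 11075 genes tested. Of single sites, 14.3% of the 29779 tested passed.

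**Figure D4:**
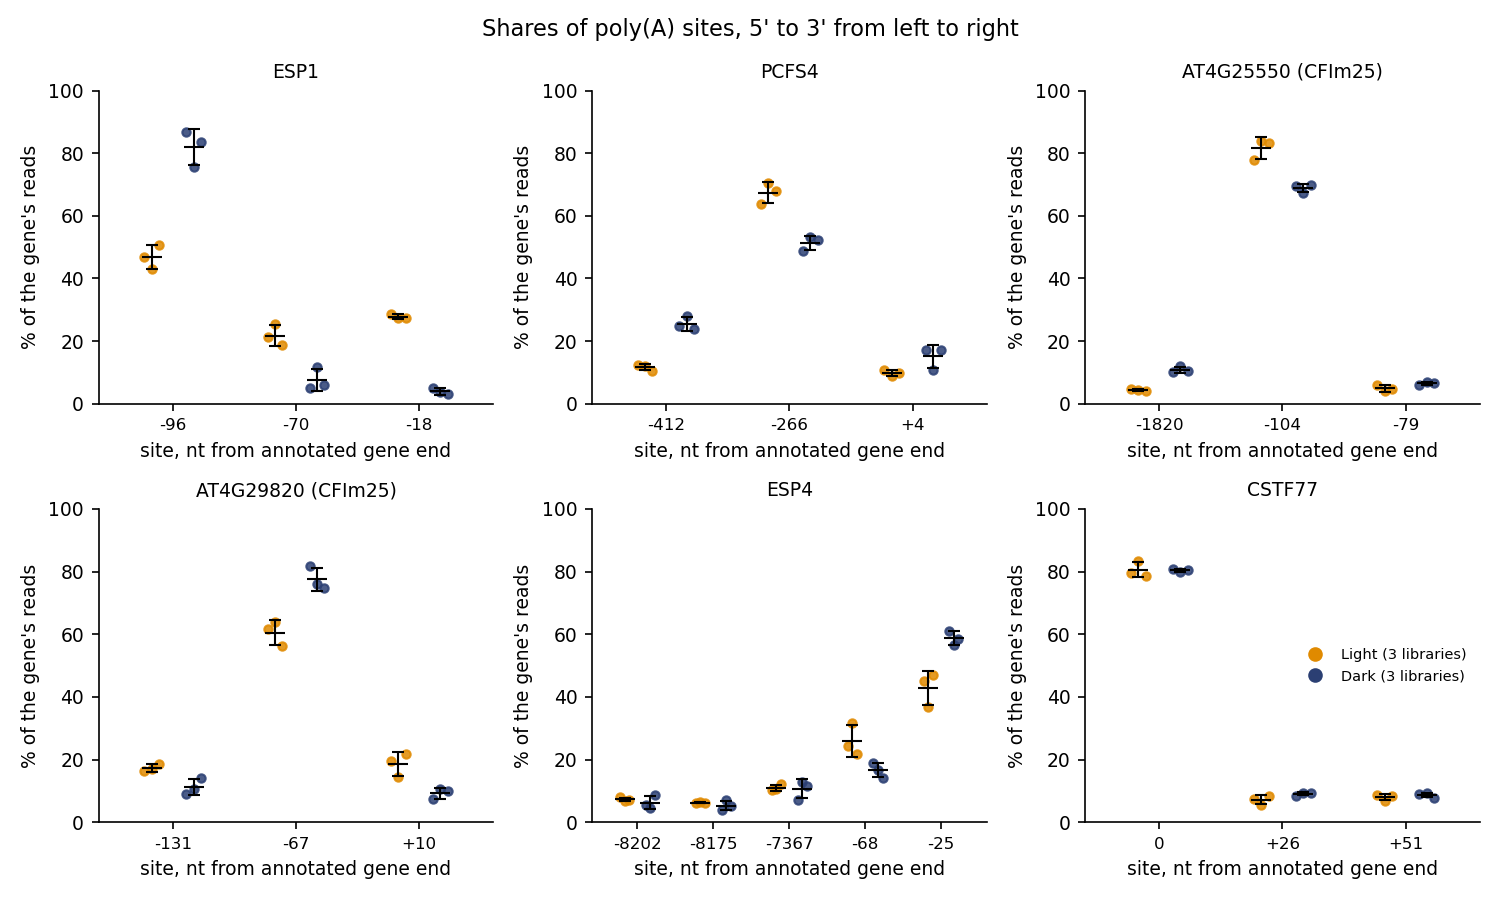
Share of each gene's reads at its sites with at least 5% of reads, one point per library with the mean and SD of 3 libraries; the axis gives each site's distance in nt from the annotated gene end, with negative values inside the gene. In ESP1 the site at -96 nt drops from 82.0% to 46.8% in Light and the 2 sites beyond it rise, whereas the 3 CSTF77 sites stay within 2 percentage points of their Dark shares.

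In ESP1, share moved among 3 sites within 78 nt of each other on the minus strand of chromosome 1, and the most proximal stayed the largest in every library. The most proximal, at position 27763713, held 86.7%, 75.7% and 83.6% of the gene's reads in Dark and 46.7%, 43.0% and 50.8% in Light. The most distal, at 27763635 and 18 nt before the annotated gene end, held 5.10%, 3.88% and 2.99% in Dark and 28.7%, 27.5% and 27.3% in Light. The groups did not overlap at either site. Relative to the gene's reads as a whole, the distal site rose by 2.69 on the log2 scale (SE 0.427, adjusted p = 2.67e-05) and the proximal one fell by 0.85 (SE 0.221, adjusted p = 0.0070). The middle site at 27763687 rose from 7.57% ± 3.56 to 21.8% ± 3.33 (SD, n = 3 each; log2 change 1.43, adjusted p = 0.0101).

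In CPM, the distal ESP1 site stood at 2.39 ± 0.212 in Light and 0.318 ± 0.140 in Dark, and the proximal one at 4.00 ± 0.248 and 6.29 ± 1.50, while the level of the whole gene did not pass the test. The call of the gene held without each library in turn (adjusted p of 0.000157 to 0.000672). At single sites, the middle one lost its call without Light replicate 2 (adjusted p = 0.0796) or Dark replicate 1 (adjusted p = 0.0959), and the proximal one without Light replicate 2 (adjusted p = 0.0577).

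In PCFS4, on the plus strand of chromosome 4, the most proximal of 3 sites lost share in Light. That site, at 2475613 and 412 nt before the annotated gene end, held 24.9%, 28.1% and 23.8% of the reads in Dark and 12.5%, 12.0% and 10.5% in Light. The values of the groups did not overlap (log2 change -1.09, SE 0.224, adjusted p = 0.000678). The main site at 2475759, 266 nt before the annotated end, held 51.4% ± 2.23 in Dark and 67.3% ± 3.39 in Light, with no overlap, and it missed the threshold (log2 change 0.43, adjusted p = 0.0747). Limma's usage test sets a site against the gene's other sites, so its log2 changes here and below are not on edgeR's scale. With limma's test in place of edgeR's, this main site passed (log2 change 1.28, adjusted p = 0.000119). The most distal site at 2476029 went from 15.1% ± 3.74 to 9.93% ± 0.908, its groups overlapped (adjusted p = 0.191), and it passed without Dark replicate 2 (adjusted p = 0.0498).

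AT4G25550, on the plus strand of chromosome 4, has sites near its end and a group of sites far upstream, inside the gene. The upstream site at 13049453, which is 1086 nt from the annotated start and 1820 nt before the annotated end, held 10.2%, 11.9% and 10.6% of the reads in Dark and 4.67%, 4.35% and 3.95% in Light. All Light libraries lay below all Dark libraries (log2 change -1.41, SE 0.248, adjusted p = 9.94e-05). It is the largest of 7 clusters upstream of the terminal region of this gene. The main site at 13051169 held 69.0% ± 1.35 in Dark and 81.6% ± 3.43 in Light without overlap, and did not pass on its own (log2 change 0.17, adjusted p = 0.602). It passed with limma's usage test (log2 change 1.14, adjusted p = 0.000284). The third site, at 13051194, held 6.58% ± 0.480 in Dark and 4.95% ± 1.07 in Light, and its groups overlapped (adjusted p = 0.378).

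In CFIM-25, on the minus strand of chromosome 4, the main site gave up share in Light while the whole gene fell. The main site at 14595747 held 81.8%, 76.2% and 74.8% in Dark and 61.8%, 63.8% and 56.1% in Light, without overlap (log2 change -0.33, adjusted p = 0.239). It passed with limma's usage test (log2 change -1.17, adjusted p = 0.000514). The most distal site at 14595670, 10 nt past the annotated end, rose from 9.32% ± 1.73 to 18.7% ± 3.82 (log2 change 1.02, SE 0.260, adjusted p = 0.0058). The site at 14595811 held 11.3% ± 2.57 in Dark and 17.4% ± 1.23 in Light (adjusted p = 0.136). All 3 sites had fewer CPM in Light, the main one 6.43 ± 0.799 against 28.1 ± 0.630 and the distal one 1.98 ± 0.435 against 3.39 ± 0.745. The call of the gene (adjusted p = 0.0082) was lost without Light replicate 1 (adjusted p = 0.0524), Light replicate 3 (adjusted p = 0.0854) or Dark replicate 1 (adjusted p = 0.0606). The distal site lost its own call without Light replicate 3 (adjusted p = 0.0591).

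ESP4, on the minus strand of chromosome 5, missed the threshold as a gene (adjusted p = 0.0717), and 1 of its 5 sites passed alone. The site at 162590, 68 nt before the annotated end, held 24.5%, 31.8% and 21.8% in Light and 18.9%, 16.7% and 14.3% in Dark (log2 change 0.72, SE 0.219, adjusted p = 0.0329). The main site at 162547, 25 nt before that end, held 42.9% ± 5.47 in Light and 58.8% ± 2.20 in Dark without overlap (adjusted p = 0.189). This main site passed with limma's usage test (log2 change -0.82, adjusted p = 0.00385). The gene passed when only sites of at least 10% were compared (adjusted p = 0.0376) and with limma's test (adjusted p = 0.0082). The call of the site at 162590 was lost without Light replicate 1, Light replicate 2, Dark replicate 2 or Dark replicate 3, with adjusted p of up to 0.290.

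In CSTF77 none of the 3 sites passed the test. The main site at 6110107, at the annotated gene end on the minus strand of chromosome 1, held 80.6% ± 2.39 in Light and 80.4% ± 0.411 in Dark (adjusted p = 0.957). The site at 6110081 held 7.18% ± 1.42 and 9.09% ± 0.474 without overlap (adjusted p = 0.676), and the site at 6110056, with 8.66% ± 0.725 in Dark, overlapped between the groups (adjusted p = 0.961). CSTF64, on the plus strand of chromosome 1, had a single site with at least 5% of reads, at 27002342, which held 86.7% ± 2.40 in Light and 86.7% ± 4.01 in Dark. Its usage was not tested.

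CLPS3 ended mainly at 1269845 on the minus strand of chromosome 3, with 68.2% ± 7.82 in Light and 80.1% ± 5.47 in Dark. Its most distal site with at least 5% of reads, at 1269765, had 17 reads in Light, at least 2 in each library, and 0 of 61 reads in Dark, which allows a share of up to 4.92% by counting error alone. The CLPS3 sites at 1269896 (11.5% ± 0.901 in Light, 11.4% ± 2.07 in Dark) and 1269817 (6.41% ± 2.61 and 3.70% ± 6.42) overlapped between the groups. With few reads beside the main site, the usage of CLPS3 was not tested.

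The usage of CSTF50, on the plus strand of chromosome 5, was not tested either, as its 8 sites held 6 to 17 reads each. Its largest site, at 24525696, took 13.9% ± 3.81 of the Light reads and 34.6% ± 10.3 of the Dark reads without overlap, on 8 and 9 reads. The site at 24525983 had 8 reads in Light, at least 2 in each library, and 0 of 25 in Dark, which allows a share of up to 12%. The groups overlapped at the other 6 sites, at 24523388, 24525739, 24525820, 24526055, 24526084 and 24526134.

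Reads were also split into those in a terminal region, the last 400 nt up to the most distal site holding 10% or more of the reads, and those upstream of it. An upstream end can leave a shorter RNA without the gene's last part. Such reads were scarce in most genes, with a median upstream share of 0.094%, and 4.14% of all genes tested had at least 10%. Among the 9 genes, AT4G25550, PCFS4 and ESP4 reached that share over all libraries in at least 1 group. In 4 genes both regions had enough reads to be compared, and in 2 of these, AT4G25550 and PCFS4, the upstream share changed, beside 44.6% of the 805 genes tested. Both fell in Light, and 14.3% of the 805 genes passed the test in that direction.

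In AT4G25550 the upstream share was 18.4%, 21.6% and 19.4% in Dark and 9.33%, 7.11% and 7.20% in Light. Light libraries stood at less than 10% and Dark libraries at over 18% (log2 change -1.34, SE 0.225, adjusted p = 5.79e-06). The upstream reads stood at 6.55 ± 0.931 CPM in Dark and 2.71 ± 0.286 CPM in Light, and the terminal reads at 26.4 ± 1.05 and 31.9 ± 2.79 CPM. Neither overlapped between the groups, neither was tested alone, and their sum did not pass the test. The call held with terminal regions of 200 nt and 600 nt.

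In PCFS4 the upstream share was 27.6%, 31.2% and 26.8% in Dark and 13.4%, 12.8% and 11.0% in Light (log2 change -1.21, SE 0.227, adjusted p = 3.43e-05). Its upstream reads come mainly from the site at 2475613, just outside the 400 nt. With a terminal region of 200 nt the main site counts as upstream too, and the log2 change was 0.05 (adjusted p = 0.824). The PCFS4 result thus rests on that one site.

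ESP4 had the highest upstream share of the 9 genes in Light, and its groups did not differ past the test. The share was 29.1%, 29.5% and 29.3% in Light and 20.0%, 26.5% and 26.0% in Dark (log2 change 0.26, adjusted p = 0.370). Its 3 larger upstream sites, at 170724, 170697 and 169889, lie 578, 605 and 1413 nt from the annotated start of this 8781 nt gene. CSTF77 had 3.69% ± 0.502 upstream reads in Light and 1.74% ± 0.212 in Dark, without overlap, and missed the threshold (log2 change 1.07, adjusted p = 0.0556). These rest on 40 and 15 reads.

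**Figure D5:**
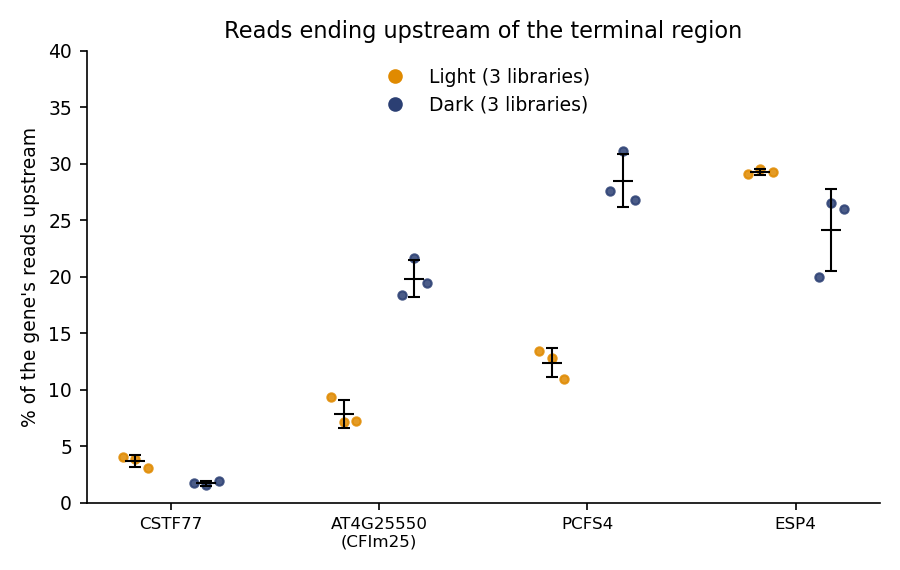
Share of a gene's reads that ended upstream of its terminal region, in percent, for the 4 genes in which it could be tested; points are libraries, bars the mean and SD of 3. The share falls in Light from 19.8% to 7.88% in AT4G25550 and from 28.5% to 12.4% in PCFS4, and it does not pass the test in ESP4 or CSTF77.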

How the data were processed

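The authors deposited 1 table of raw counts, giving for every poly(A) site cluster (chromosome, strand, position) the reads in 6 libraries; all values were whole numbers. Bowtie2 and TAIR10 are named in the submitters' processing notes; the sources used here give no versions, filters or clustering rule, nor how multiply mapped reads and positions were handled. Columns were matched to samples by title.

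Genes came from a RefSeq gene table on TAIR10.1, which lists no strand. Over 15 stretches of the nuclear chromosomes, 87.0% to 91.9% of main sites (genes with at least 60 reads) lay within 300 nt of a listed gene end. A gene's strand was taken from the reads near its ends (from 100 nt outside to 300 nt inside, or 50% of the gene where that is longer; at least 20 reads, 90% on 1 strand). Clusters shared by genes or within 50 nt of tRNA, snoRNA, snRNA or rRNA genes were left out. All 9 genes were resolved, and none of their clusters was left out.

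Tests were run with edgeR 4.0.16 in R 4.3.3 over the whole table: TMM, filterByExpr (minimum count 10, total 15), the quasi-likelihood F-test for levels, and diffSpliceDGE for site usage and upstream shares, with Benjamini-Hochberg adjustment over all genes or sites and a threshold of 0.05. Changes at sites from edgeR are relative to the gene as a whole. Those from limma are relative to the gene's other sites, so the sizes from these tests are not comparable. SEs are the change over the root of F. The scripts were tested on simulated data. Alternatives used DESeq2 1.42.0 and limma 3.58.1. The 9 genes were named in full, each with its sites of at least 5% of reads, and of each other list the called genes with the largest rise and fall; smaller sites named were chosen after their values were seen. Members and lists were chosen with earlier results of these data known. Intervals and floors cover counting error only where they rest on reads.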

Additional observations from a re-analysis of the deposited data

Results flagged for a closer look

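Reads on the strand opposite to a gene enter none of the comparisons. Within the span of CSTF77, 2 clusters on the opposite strand held 23 reads, 5, 4 and 14 in the Light libraries and 0 in each Dark library, more than the 3 reads that a count of 0 allows. Within the span of CSTF64, 3 such clusters held 18 reads, 13 in Light and 5 in Dark. Both genes have a neighbour on the opposite strand within 200 nt of their 3' ends, AT1G17750 and AT1G71810. No difference between the groups was tested for these reads. The other 7 genes had 0 reads on the opposite strand within their spans. Groups of 3 libraries were too small for a test of single outlying libraries.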

How the results depend on the processing

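Called genes among the 9 numbered 2 by level, and 9 with library totals alone; without single libraries the count ranged from 2 to 4, the highest without Dark replicate 2. Site usage gave 4 genes, 5 with limma's test (ESP4 added), 4 with sites of at least 10% (ESP4 added, AT4G25550 left with 1 site and no value), and 3 to 4 without single libraries. Upstream share gave 2 genes, and 1 with a terminal region of 200 nt or 600 nt. With 600 nt PCFS4 had no value. Calls among all genes moved as well, from 12233 by level to 12640 with library totals. For site usage they went from 2843 to 3930 with limma's test and to 2004 with sites of at least 10%. For upstream share they went from 359 to 512 with 200 nt and to 302 with 600 nt. Without single libraries they ranged from 11485 to 12343 by level, 1990 to 2864 by site usage and 312 to 383 by upstream share. CSTF77's level turned to 0.40 with library totals and 0.0012 without reads past the gene end. PCFS4's upstream share turned to 0.053 with 200 nt. Without single libraries, ESP1's level ranged from -0.050 to 0.283 (negative without Dark replicate 3), the CSTF77 share at 6110056 from -0.133 to 0.025 (positive without Light replicate 2) and the ESP4 share at 169889 from -0.086 to 0.247 (negative without Dark replicate 1). Of 465 single-gene or single-site values under an alternative, 429 kept direction and side of the threshold, 12 lost and 18 gained the call, and 6 reversed. The cause was not tested. With limma's test, 5 sites or genes gained a call, ESP4 as a gene and the main sites of PCFS4, AT4G25550, CFIM-25 and ESP4. Same-numbered Light and Dark libraries had correlated deviations of 0.0548, 0.000359 and 0.0727, and not every sample matched its own number best. They were therefore not taken as pairs. With the replicate number as a block, 3 of the 9 genes were called by level (PCFS4 added, adjusted p = 0.0413), 4 by site usage and 2 by upstream share. Among all genes, the calls with this block numbered 12095, 2715 and 353. Depth limits CSTF50 (83 reads) and the small sites of CLPS3.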

Other observations

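The mean position of 3' ends within the terminal region differed in direction between genes; positions are given relative to the annotated gene end, negative inside the gene, and no difference was tested. In ESP1 the mean lay at -94.9 ± 1.85 nt in Dark and -69.8 ± 0.795 nt in Light (SD, n = 3 each), nearer to the gene end in Light. CLPS3 took the same direction, from -129 ± 2.64 to -122 ± 1.37 nt. PCFS4 took the other, from -204 ± 12.8 to -231 ± 3.61 nt, as did ESP4, from -34.6 ± 0.688 to -44.1 ± 3.41 nt. The groups did not overlap in these 4 genes, and they overlapped in the other 5. The share of all genes without overlap in this measure was not computed, so the count says nothing particular to these genes. PCFS4 also had 2 small sites that gained share in Light in every library, at 2475732 (1.40% ± 0.124 to 4.07% ± 1.12) and 2475872 (2.08% ± 0.354 to 3.97% ± 0.352); these were chosen after their values were seen and were not tested.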
